A study of Mus musculus and Homo sapiens with 9 samples.

Results

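Strong p53 peaks were assigned to 8 mouse genes, Ier5, Itpripl1, Pgpep1, Sergef, Agbl1, Dyrk3, Gpr157 and Lmna, in B16 cells, a mouse melanoma line. The genes were chosen from a list of p53 peaks because a peak above 18-fold enrichment had its summit inside the gene, or had no protein-coding gene end nearer than that of the gene. They are genes less often named as p53 targets than Cdkn1a or Mdm2. In all, 9 peaks met the rule at these genes, of 126 p53 peaks, and the 8 genes were among 21883 protein-coding genes on placed chromosomes. The fold enrichment chose the genes, so it is given as a description with no test. Both libraries used came from B16 cells whose own Tdg gene carries an HA tag (genotype Tdg HA knockin), grown without any stated treatment. An antibody against p53 was used in 1 library and an antibody against HA, which reaches the tagged thymine DNA glycosylase (TDG), in the other. The labels do not say whether the tagged line is a single clone. The other 7 of the 9 samples, among them p53 antibody in Trp53 KO cells, HA antibody in WT cells, input and IgG, were not analysed here, so whether a peak depends on p53 or on the tag was not tested. There was 1 library per antibody, with no replicate.

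p53 is a transcription factor that is stabilised by DNA damage and other stress. It binds DNA as a tetramer on a pair of adjacent 10-base repeats and switches on genes for cell cycle arrest, apoptosis, repair and its own degradation. Its sites lie at gene starts, in introns and far from genes, so the nearest gene is not always the one that a site serves. TDG is a repair enzyme that excises mispaired thymine and oxidised methylcytosine, bases that arise mainly at CG dinucleotides.

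The strongest of the 9 peaks, assigned to Ier5, carried an exact p53 site at its summit. The summit (mm10, chromosome 1, position 155056329) lay 40038 bases beyond the end of Ier5, and 195 bases before the lower end of the long noncoding RNA gene Gm51651. The 300-base window from 250 bases before to 50 bases after the listed start of Gm51651 therefore holds the summit, and it is the only listed start window that reaches any of the 9 summits. It is shown because it holds the p53 full site, the pair of 10-base repeats with no base between them, printed in capitals. The window is chr1:155056274-155056573, plus strand, from RefSeq for GRCm38.p6, the assembly that mm10 follows.
Gm51651 window: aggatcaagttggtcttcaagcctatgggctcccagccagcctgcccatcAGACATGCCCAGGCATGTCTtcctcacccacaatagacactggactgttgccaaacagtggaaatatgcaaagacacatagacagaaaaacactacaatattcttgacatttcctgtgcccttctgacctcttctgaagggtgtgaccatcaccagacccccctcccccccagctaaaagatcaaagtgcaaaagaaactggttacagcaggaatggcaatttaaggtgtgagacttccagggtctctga
The 20 bases in capitals (chr1:155056324-155056343) matched the p53 full site with 0 mismatches, and the summit lay within them, 4.5 bases from their middle.

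Exact sites of this kind were rare. Of 32851 start windows in the RefSeq table, 3 (0.00913%) held a p53 full site with 0 mismatches, 29 (0.0883%) held one with up to 1, 262 (0.798%) one with up to 2 and 6.29% one with up to 3. The site is its own reverse complement, so both strands were searched at once. The other 2 windows with an exact site, at Sptbn4 and D730003K21Rik, held no p53 summit. They are named here after their values were seen. In all, 14 windows (0.0426%) held a p53 summit. They held 11 different summits, since windows of neighbouring starts overlap, and some summits are counted in more than 1 window. The 14 were 1 of 3 windows whose best site had 0 mismatches, 3 of 26 (11.5%) with 1, 3 of 233 (1.29%) with 2, 4 of 1805 (0.222%) with 3 and 3 with more than 3. The window with 0 mismatches and a summit is that of the chosen peak near Ier5, so these shares are descriptions only. A shorter motif, a pair of CATG cores with any 6 bases between them, overlaps the full site and is also its own reverse complement. It occurred in 0.712% of all windows and in 2 of the 14 windows that held a p53 summit, those of Gm51651 and Cdkn1a. For comparison with known targets, the sites with up to 1 mismatch whose windows held a p53 summit are printed with 10 bases on each side in lower case and the 20-base site in capitals.
Gm51651 (Ier5), chr1:155056314-155056353, plus strand: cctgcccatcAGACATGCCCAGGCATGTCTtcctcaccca
Cdkn1a, chr17:29090918-29090957, plus strand: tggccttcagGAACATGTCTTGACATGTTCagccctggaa
Ccng1, chr11:40755452-40755491, minus strand: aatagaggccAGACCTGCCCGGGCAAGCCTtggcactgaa
Rps27l, chr9:66946286-66946325, plus strand: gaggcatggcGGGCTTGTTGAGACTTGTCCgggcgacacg
The p53 peak at the exact site near Ier5 reached 69.7-fold, against 32.5-fold at Cdkn1a, 27.8-fold at Ccng1 and 20.5-fold at Rps27l, whose sites each had 1 mismatch. The fold chose the peak near Ier5, and it alone of the 4 had an exact site. Whether fold follows the site match was not tested. In each of the 4 peaks the summit lay inside the 20 bases. Sequence at the other 8 peaks was not analysed here.

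**Figure D1:**
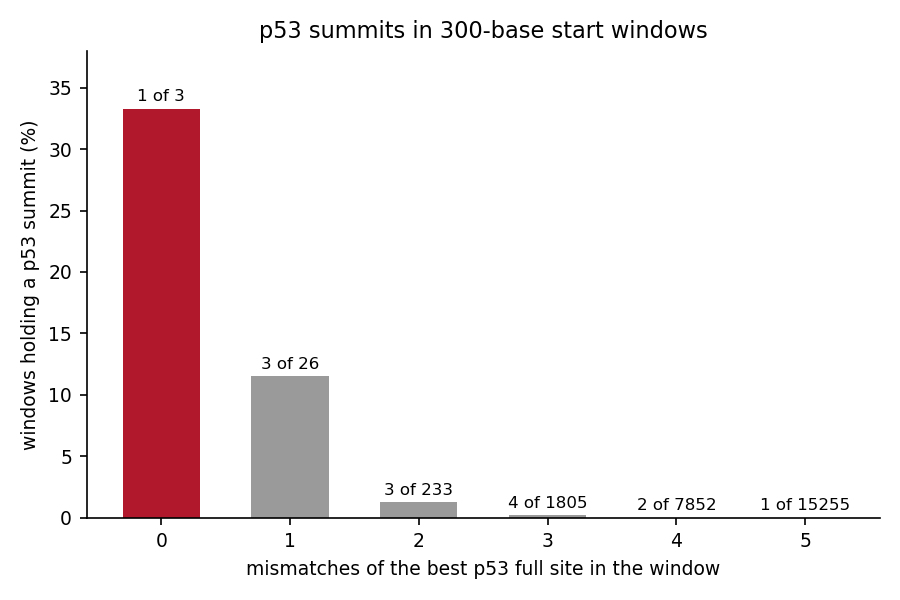
Share of 300-base start windows that held a p53 summit (vertical axis, %) by the number of mismatches in the best p53 full site of the window (horizontal axis), with the counts of windows above the bars (11 different summits in 14 windows). The red bar, 1 of 3 windows, is the class that holds the site near Ier5. Its 1 window with a summit is that of a peak chosen for its fold, so the bar is a description only. The share was 11.5% at 1 mismatch and 1.29% at 2.

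The fold enrichments of the 9 peaks spanned a 3.69-fold range. The values are the authors', and each is the ratio of the scaled read pile at the summit to the local background on the same scale, after 1 is added to both. The reads at each summit were recovered from the deposited fold and −log10 p, and the intervals given with the folds are exact Poisson 95% intervals of these reads, which cover counting error only. By level the order was Ier5, Itpripl1, Pgpep1, Sergef, the stronger Agbl1 peak, Dyrk3, Gpr157, the weaker Agbl1 peak and Lmna. Only Ier5 stood clear of the next of the 9. The intervals of each other pair of neighbours in this order overlapped, so the order within those pairs is not resolved at this depth. Some peaks further apart in the order had intervals that did not overlap, such as Itpripl1 (37.7 to 51.2) and Dyrk3 (25.6 to 35.3). In the full p53 list the Ier5 interval also overlapped those of the peaks ranked 1 (73.4-fold, 65.2 to 82.3) and 3 (54.8-fold, 47.6 to 62.7). All 9 were among the 41 peaks (32.5% of the p53 list) above 18-fold. The intervals of the Lmna peak (14.8 to 23.8) and of the weaker Agbl1 peak (16 to 25.2) reached below this threshold. The peaks just above this threshold were 18.4-fold near Psg22, 18.4-fold in Ephx1 and 18.1-fold in Ppcdc, and those just below it were 17.9-fold near Mrpl45, 17.9-fold near Syt11 and 17.6-fold in Sh3bgrl2.

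**Figure D2:**
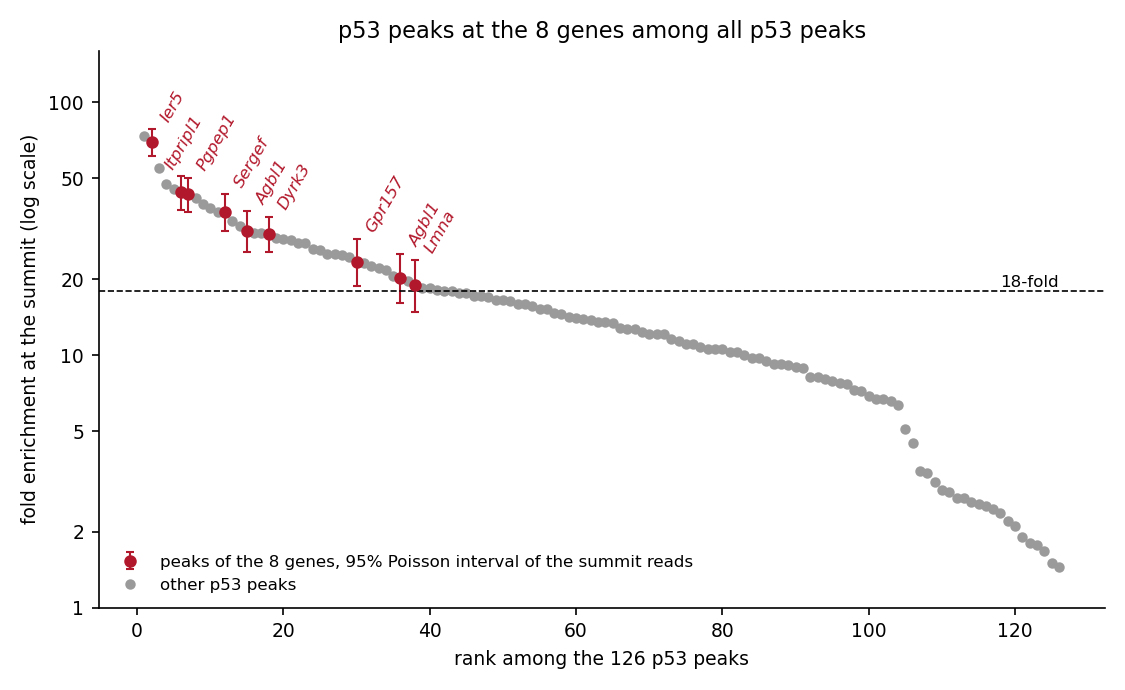
Fold enrichment at the summit (vertical axis, log scale) of the 126 p53 peaks by rank (horizontal axis), with the 9 peaks of the 8 genes in red with exact Poisson 95% intervals and the other peaks in grey. The peak near Ier5 is second in the list at 69.7-fold, and the Lmna peak, 38th at 18.9-fold, lies just above the dashed line at 18-fold.

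Ier5 encodes a nuclear protein made early after growth signals and stress. In human cells it activates the heat shock factor HSF1 and is itself induced by p53. The gene (chromosome 1, 155096367 to 155099636, minus strand) did not hold the summit but was the nearest protein-coding gene to it. The p53 peak (155056008 to 155056565) was 558 bases wide and reached 69.7-fold (interval 61.6 to 78.6) from 265 reads. The −log10 q was 327 and the local background 2.03 scaled reads, which was the genome-wide value. Between the summit and Ier5 lay the noncoding genes Gm51651 and Gm9530, and the summit itself lay in Gm41980, another long noncoding RNA gene whose span reaches across it. No HA peak lay within 10 kb, and the nearest HA peak was 101956 bases away.

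Itpripl1 encodes a membrane protein related to the interactor of the inositol trisphosphate receptor. Its p53 peak (chromosome 2, 127136952 to 127137265) reached 44.0-fold (37.7 to 51.2) from 167 reads. The summit lay 1658 bases beyond the end of the gene (127138769 to 127143457, minus strand), inside the noncoding gene Gm35347. Ncaph, which encodes a condensin subunit, lay 3157 bases away on the other side. The nearest HA peak was 260583 bases away.

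Dyrk3 encodes a dual-specificity kinase that, in human cells, dissolves protein condensates. The summit lay outside the gene, just before its start. The p53 peak (chromosome 1, 131139211 to 131139600) reached 30.2-fold (25.6 to 35.3) from 151 reads, with its summit 1138 bases upstream of the listed start of Dyrk3 (131128441 to 131138234, minus strand). No annotated gene held this summit, and the next gene on the other side, Eif2d, was 13800 bases away. This was also the only one of the 9 peaks with a raised local background, 3.0 scaled reads against the genome-wide 2.03. Its 151 reads exceeded the 139 at Sergef and the 117 at the stronger Agbl1 peak, both of which had a higher fold. By −log10 q it ranked 14th of 126, and by fold 18th. The nearest HA peak was 386832 bases away.

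Pgpep1 and Sergef held their summits well inside the gene. Pgpep1 encodes pyroglutamyl-peptidase 1, which removes an N-terminal pyroglutamate from peptides. Its peak (chromosome 8, 70649441 to 70649844) reached 43.3-fold (36.9 to 50.4) from 164 reads. The summit lay 10131 bases downstream of the listed start and 3171 bases from the nearer gene end (gene 70646436 to 70660446, minus strand). Gdf15, a known p53 target that encodes a stress cytokine, lay 17137 bases from this summit, and no p53 peak lay within 10 kb of Gdf15. The nearest HA peak to the Pgpep1 peak was 109842 bases away.

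Sergef encodes a protein related to guanine nucleotide exchange factors that binds the exocyst subunit Sec5 in human cells. Its peak (chromosome 7, 46601993 to 46602431) reached 36.7-fold (30.9 to 43.3) from 139 reads. The summit lay 37586 bases downstream of the listed start and 40675 bases from the nearer end of the gene (46443159 to 46642896, minus strand). No other annotated gene held it, and the next gene was Tph1, 42420 bases away. The annotation used here gives no exons, so exonic and intronic positions were not separated for any of the 8 genes.

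Agbl1 was the only one of the 8 with 2 peaks. It encodes a cytosolic carboxypeptidase of the family that removes glutamates from tubulin. The stronger peak (chromosome 7, 76244810 to 76245148) reached 31.0-fold (25.7 to 37.0) from 117 reads. The weaker one (76245761 to 76246017) reached 20.2-fold (16 to 25.2) from 76 reads. Their summits were 976 bases apart. Both lay in the pseudogene Gm5597 (76244549 to 76246119, 1571 bases), one 462 bases from its lower end and the other 132 bases from its upper end. In all, 7 of the 126 p53 summits (5.56%) lay in a pseudogene. Agbl1 itself spans 895108 bases, and the summits lay 15124 and 16100 bases downstream of its listed start. Whether reads from a similar sequence elsewhere contribute to these peaks was not tested. The nearest HA peak was 2626432 bases from the stronger peak.

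Gpr157, which encodes an orphan G protein-coupled receptor, was only the nearest protein-coding gene. Its p53 peak (chromosome 4, 150048923 to 150049412) reached 23.4-fold (18.8 to 28.7) from 88 reads, and the summit lay 38376 bases upstream of the start of Gpr157 (150087503 to 150105927, plus strand). H6pd was nearly as close on the other side, at 40104 bases. The summit lay in the noncoding gene Gm13067 (150029405 to 150058717) and 19327 bases from the hairpin of Mir34a (150068454 to 150068555, plus strand), which was nearer than Gpr157. Mir34a encodes miR-34a, a known p53-induced microRNA that represses cell cycle genes. Its mature sequence is printed because it is the nearest product with a known link to p53, with the seed (bases 2 to 8) in capitals, from RefSeq for GRCm38.p6 (chr4:150068473-150068494, plus strand).
mmu-miR-34a-5p: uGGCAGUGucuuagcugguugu

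Lmna encodes lamins A and C, the intermediate filament proteins that line the inside of the nuclear envelope. Its p53 peak (chromosome 3, 88494830 to 88495146) was the weakest of the 9, at 18.9-fold (14.8 to 23.8) from 71 reads. The gene (88481148 to 88509932, minus strand) held the summit, which lay 8360 bases downstream of the upper of its 2 listed starts and 1680 bases upstream of the lower one.

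**Figure D3:**
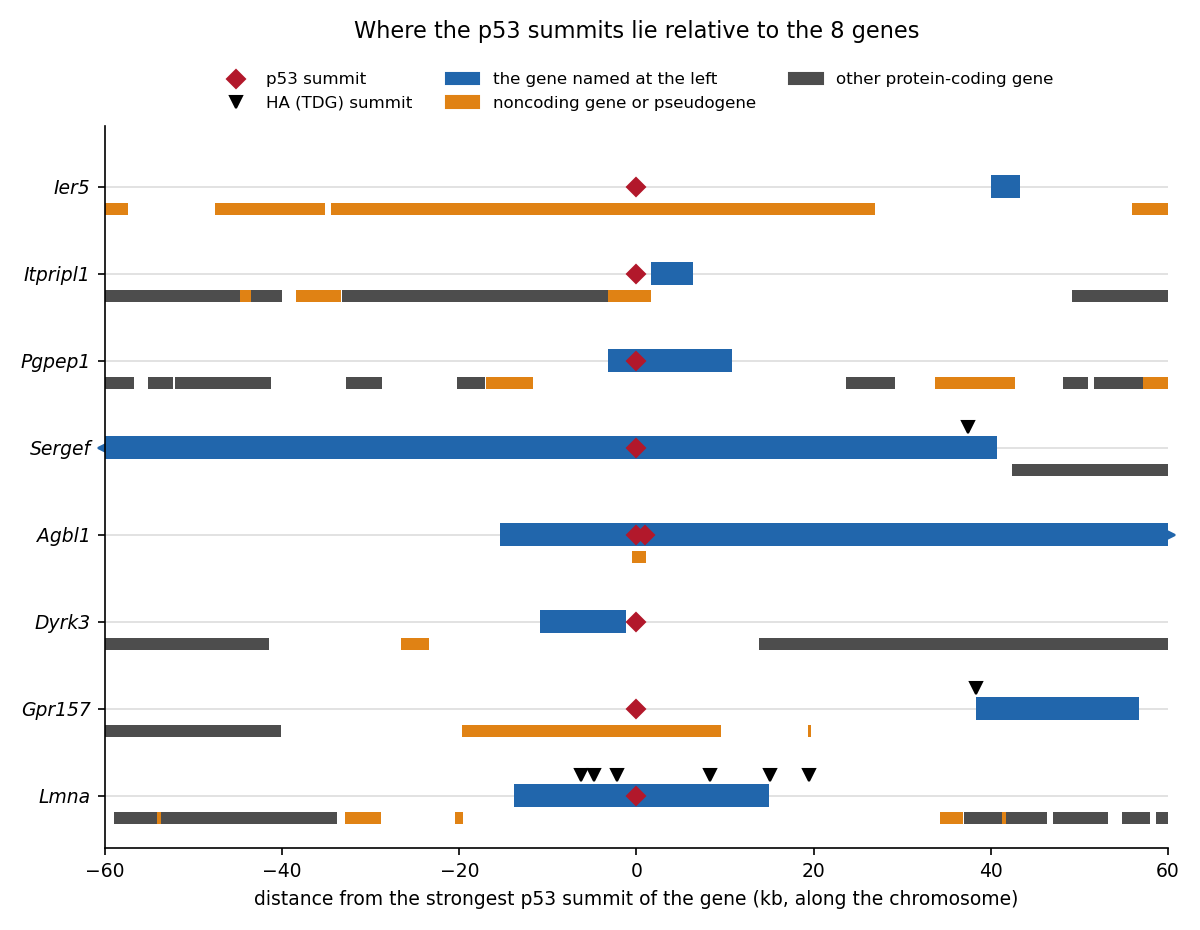
Position of the p53 summits (red diamonds) relative to the 8 genes (blue bars), with HA summits (black triangles), noncoding genes and pseudogenes (orange) and other protein-coding genes (dark grey), by distance along the chromosome from the strongest p53 summit of each gene (horizontal axis, kb, 60 on each side). Pgpep1, Sergef, Agbl1 and Lmna hold their summits, the other 4 genes lie beside theirs at 1138 to 40038 bases, and only Lmna has HA summits within 10 kb.

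By position the genes fell into 2 groups of 4: Pgpep1, Sergef, Agbl1 and Lmna held a summit, and Ier5, Itpripl1, Dyrk3 and Gpr157 were only nearest to one. As peaks, 5 of 9 summits lay in a protein-coding gene, against 12 of the 32 other peaks above 18-fold (37.5%) and 42.1% of all 126. A noncoding gene or pseudogene held 5 of the 9 summits (55.6%, exact binomial interval 21.2 to 86.3%), against 5 of the other 32 (15.6%, 5.28 to 32.8%) and 19.0% of all 126. The 5 include both Agbl1 summits, which share the pseudogene Gm5597, so by gene it was 4 of 8. These intervals cover counting error only, treat the 2 Agbl1 peaks as separate, and overlap. The 126 include 8 peaks on unplaced sequence, which could not be assigned to any gene, so the shares of all 126 are lowered by them. When the nearest end of any annotated gene decided the assignment, 4 of the 8 genes kept their summit, namely Dyrk3, Pgpep1, Sergef and Lmna. The Ier5 peak then went to Gm51651, the Itpripl1 peak to Gm35347, the Gpr157 peak to Gm13067 and both Agbl1 peaks to Gm5597. From summit to closest end of a protein-coding gene, the median was 15420 bases for the 9 peaks (quartiles 3171 and 38376) and 3042.5 bases for the other 32 (1044 and 11959). By the choice of genes, the other 32 hold known targets such as Cdkn1a, with a summit 36 bases from an end. The 9 also count Agbl1 at both its peaks, so the difference is a description only. Peak width hardly separated the sets, with medians of 390 bases for the 9 and 377 for the other 32.

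HA peaks were called near 1 of the 9 p53 peaks. Within 10 kb there were 4 HA peaks at the Lmna peak and none at the other 8, so 1 of 9 p53 peaks had any (11.1%, interval 0.281 to 48.2%), against 7 of the other 32 peaks above 18-fold (21.9%, 9.28 to 40.0%) and 27.0% of all 126 p53 peaks. No HA peak overlapped any of the 9. Within 50 kb there were HA peaks at 3 of the 9, at Lmna, Sergef and Gpr157, against 13 of the other 32 (40.6%) and 46.0% of all 126. Taking the genes rather than the peaks, the same 3 of 8 had an HA peak inside or within 10 kb of the gene, where 19.1% of all protein-coding genes did. The 126 p53 peaks include 8 on unplaced sequence, with folds of 1.80 to 3.14 and local backgrounds of 31 to 66 scaled reads. Each of them had an HA peak within 10 kb, as did weak peaks at Rn18s-rs5 on chromosome 17 (1.45-fold to 2.88-fold). Such peaks raise the shares of all 126, and none of them is among the other 32 above 18-fold.

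At Sergef and Gpr157 the HA peak lay at the listed start and the p53 peak far from it. The HA peak at Sergef (46639619 to 46639889) reached 6.25-fold in the HA list (interval 4.07 to 9.24) from 23 reads, with its summit 99 bases from the listed start and 37487 bases from the p53 summit. That listed start, at 46639807, lies inside Sergef, whose upper end is 46642896, and no HA summit lay within 1 kb of either end of the gene. The HA peak at Gpr157 (150087365 to 150087645) reached 5.73-fold (3.66 to 8.62) from 21 reads, with its summit 77 bases from the start and 38299 bases from the p53 summit.

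Lmna carried 6 HA peaks, 4 of them in the gene. From the lowest position upwards, the HA peak at 88488597 to 88488890 reached 5.70-fold (3.8 to 8.24) from 26 reads. The one at 88489991 to 88490374 reached 4.27-fold (2.75 to 6.36) from 22 reads. The one at 88492496 to 88493030 reached 7.19-fold (4.83 to 10.3) from 27 reads, with its summit 517 bases from the lower listed start. These 3 lay on the lower side of the p53 peak, and the last was the nearest to it, with a gap of 1799 bases. On the upper side, the HA peak at 88503192 to 88503638 reached 7.03-fold (4.69 to 10.2) from 26 reads, with its summit 5 bases from the upper listed start. The HA peak at 88509990 to 88510282 reached 5.19-fold (3.49 to 7.46) from 27 reads. It began 57 bases above the upper end of the gene, where this minus-strand gene begins. The one at 88514154 to 88514609 reached 4.64-fold (2.89 to 7.10) from 19 reads. The 6 intervals overlapped one another. The local background in the HA list was between the genome-wide 2.56 and 4.0 scaled reads at these 6 peaks, so the part of raised background in some of them was not tested.

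**Figure D4:**
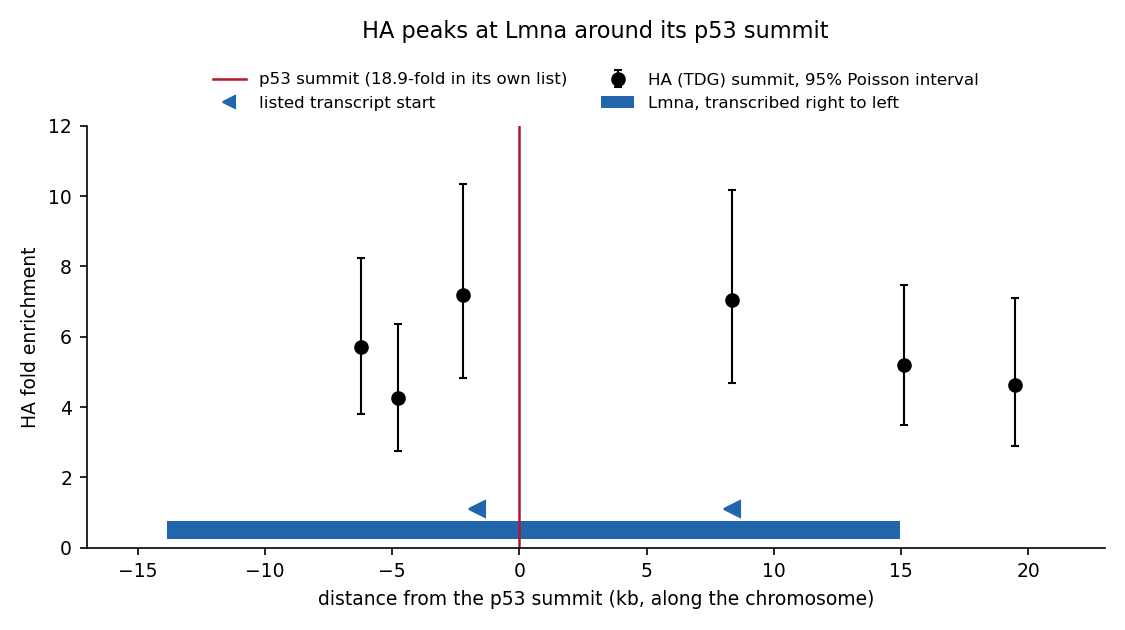
Fold enrichment of the 6 HA peaks at Lmna (vertical axis, with exact Poisson 95% intervals) by distance of the summit from the p53 summit (horizontal axis, kb, along the chromosome), with the gene in blue below and its 2 listed starts as arrowheads. The HA summits lie on both sides of the p53 summit, which is marked by the red line, and the highest 2, at 7.19-fold and 7.03-fold, lie near the listed starts.

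Few genes had as many HA peaks as Lmna. Of 21883 protein-coding genes, 17709 had no HA summit inside or within 10 kb, 3468 had 1, and 2 (0.00914%) had 6 or more, which were Spen with 7 and Lmna with 6. Counting only summits inside the gene, 7 genes (0.032%) had at least the 4 of Lmna. Lmna spans 28.8 kb and Spen 70.8 kb. Spen is named here after its values were seen. Longer genes have more room for peaks, and length was not adjusted for.

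The upper listed Lmna start also differed from most starts with an HA summit in CG content. This start, at 88503352, lies inside the gene, whose upper end is 88509932. No start window was listed at that end, so its CG content was not read. Of the 32851 start windows, 1679 (5.11%) held an HA summit. Those windows had a median of 25 CG dinucleotides (quartiles 20 and 31), and the other 31172 windows had a median of 6 (quartiles 3 and 19). The Gpr157 window held its HA summit with 18, below the lower quartile of the windows with an HA summit and within the quartiles of the others. The upper Lmna window held its HA summit with 1 CG. Among the windows with an HA summit, only this one and that of Slc25a34 had at most 1 (2 of 1679, 0.119%), whereas 4638 of the other 31172 (14.9%) did. This comparison was chosen after the values had been seen, as was the naming of Slc25a34. The Gpr157 and upper Lmna windows are printed with each CG in capitals, to show the difference between them, from RefSeq for GRCm38.p6. They run from 250 bases before to 50 bases after the start.
Gpr157, chr4:150087253-150087552, plus strand: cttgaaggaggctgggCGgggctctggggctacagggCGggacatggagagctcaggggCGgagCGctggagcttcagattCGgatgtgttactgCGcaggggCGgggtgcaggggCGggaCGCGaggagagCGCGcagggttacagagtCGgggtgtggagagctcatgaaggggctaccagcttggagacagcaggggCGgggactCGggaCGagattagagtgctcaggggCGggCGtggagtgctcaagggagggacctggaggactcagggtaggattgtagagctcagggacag
Lmna (upper start), chr3:88503303-88503602, minus strand: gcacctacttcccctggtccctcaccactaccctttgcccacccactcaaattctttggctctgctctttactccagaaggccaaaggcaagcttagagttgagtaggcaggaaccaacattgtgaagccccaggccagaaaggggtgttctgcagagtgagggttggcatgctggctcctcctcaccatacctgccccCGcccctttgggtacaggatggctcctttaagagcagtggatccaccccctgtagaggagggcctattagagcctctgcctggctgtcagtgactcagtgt
Of the other start windows of the 8 genes, that of Sergef, which an HA peak overlapped without its summit, had 24 CG. The Dyrk3, Pgpep1 and Ier5 windows had 32, 27 and 20 CG and no HA peak. The Itpripl1 windows with 14 and 2, the lower Lmna window with 7 and the Agbl1 window with 4 had no HA peak either. None of the 10 listed start windows of the 8 genes held a p53 summit, and none held a p53 full site with up to 2 mismatches.

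**Figure D5:**
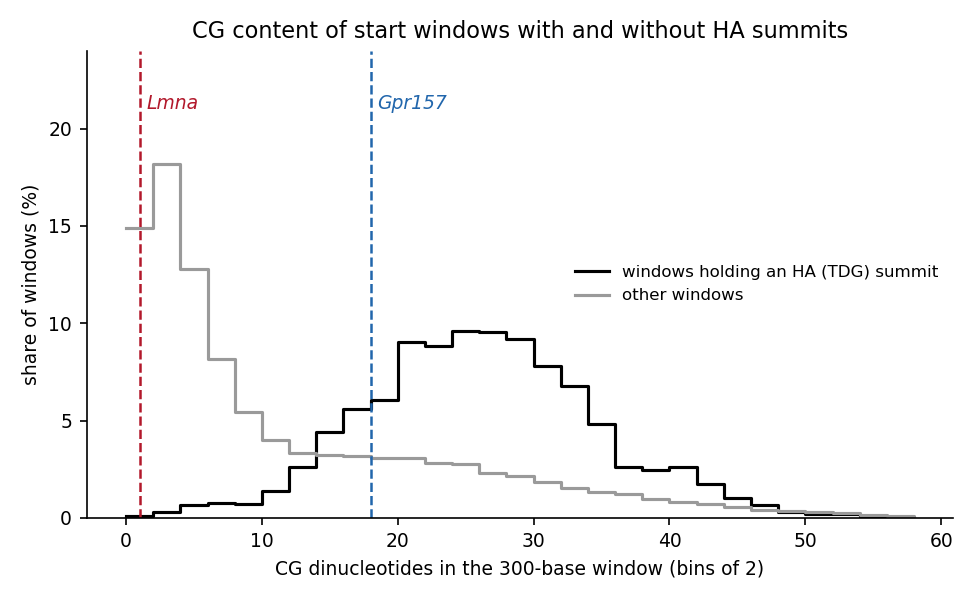
Share of 300-base start windows (vertical axis, %) by number of CG dinucleotides (horizontal axis, bins of 2) for 1679 windows holding an HA summit (black) and 31172 other windows (grey). The dashed lines mark the windows of Lmna (upper listed start, inside the gene), with 1 CG, and Gpr157, with 18, both of which hold an HA summit.

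Relatives and partners of the 8 genes, except Gpr157, for which no list was made, were counted in the same way. Over 8 lists of related genes, 72 genes other than the 8 themselves were matched. Of these, 1 (1.39%) had a p53 summit inside or within 10 kb, where 0.489% of all protein-coding genes did. Within 50 kb there were 2, where 1.25% of all did, the addition being Hsp90aa1. Counts of 1 and 2 are too few to set these genes apart from the rest. The one within 10 kb was Exoc4, which encodes an exocyst subunit, with a 15.7-fold peak whose summit lay in its start window. None of 12 DYRK, HIPK and CLK kinases, 3 IER genes, 14 heat shock factors and chaperones, 7 inositol trisphosphate receptors and interactors, 7 pyroglutamyl and proline peptidases, 5 tubulin deglutamylases or 15 lamina and envelope genes had one, Lmnb1 and Lmnb2 included. Of 30 known p53 targets, 13 (43.3%) had one. Gdf15, next to Pgpep1, was a further target with a summit within 50 kb only. All these lists, the p53 targets included, were chosen with earlier results of these data known, so their shares are descriptions only.

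HA peaks were common near the same relatives. An HA summit lay inside or within 10 kb of 28 of the 72 (38.9%), where 19.1% of all protein-coding genes had one. Chaperones and heat shock factors accounted for 9 of 14, led by Hspd1 and Hspe1, neighbours that share 1 peak of 7.87-fold, and by Hsp90aa1 at 7.03-fold. Hspa1a and Hspa1b also share 1 peak, of 5.73-fold, so some peaks are counted for more than 1 gene. Hsf1, whose product IER5 activates in human cells, had one at 5.47-fold, whereas Ier5 had none. Hsf1 is named after its values were seen. The lamina and envelope list had 6 of 15, with Syne2 (8.07-fold), Sun1 (6.25-fold), Nrm (5.37-fold) and Lbr (4.95-fold) highest, each with 1 HA summit against the 6 of Lmna. Of the kinases related to Dyrk3, 5 of 12 had one, with Dyrk1a (6.77-fold), Clk2 (6.49-fold), Dyrk1b (5.99-fold) and Clk3 (5.21-fold) highest. The inositol trisphosphate receptor list had 4 of 7, Itprid2 (6.25-fold), Itpr2 (5.73-fold), Itpr1 (4.31-fold) and Itpr3 (3.90-fold). Of the IER genes, Ier3 had 2 HA summits (the higher at 7.29-fold) and Ier5l had 1 (4.70-fold). The peptidase list had Prep (5.51-fold) and the exocyst list Exoc6b (6.0-fold), and none of the 5 tubulin deglutamylases had one. Of the 30 known p53 targets, 14 (46.7%) had an HA summit inside or within 10 kb. A share above the 19.1% of all protein-coding genes was thus not particular to the relatives.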

How the data were processed

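ChIP-seq peak lists of 2 libraries from B16 cells with HA-tagged Tdg were used, 1 for p53 (126 peaks) and 1 for HA (3410 peaks), with 1 list per sample. Per the submitters' processing notes, the build was mm10 and the tools were MACS2, Bowtie2, Trim Galore, ChIPseeker, deepTools and Picard, with no versions given. Fixation was 10 min in 1% formaldehyde and fragments measured about 300 bp, per the labels' protocols. Which control library and threshold MACS2 used was not given in the sources used here. Each list as deposited by the authors holds a fold enrichment (a ratio), −log10 p and −log10 q at each summit, a score, which for 126 of 126 p53 peaks was 10 times that −log10 q without its decimals, and positions in bases. Folds were read only within their own list.

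Library depth is unknown from these lists. Local background and summit reads were recovered by solving the MACS2 formulas for fold and Poisson p. The method was tested on simulated data. The recovered reads were whole to within 0.05 for 99.21% of p53 and 100% of HA peaks, where 1 read added 0.7924 (p53) or 0.924 (HA) to the scaled pile, and 1 p53 peak had no solution. Intervals of reads and shares are exact 95% intervals and cover counting error only.

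Genes, strands and start windows came from RefSeq tables of GRCm38.p6. All 8 genes matched. Strand came from the start windows, and no genome was used. The p53 full site is the published consensus of a pair of 10-base repeats with no spacer. No test was run, because the fold chose the genes and each antibody had 1 library. The genes and lists were chosen with earlier results of these data known. The rule for named genes took the 8 genes with their p53 peaks, neighbours and nearest HA peaks, the 3 peaks on each side of the threshold, list genes with a p53 peak and up to 4 per list with an HA peak. Python 3.11.15, numpy 2.4.6, scipy 1.17.1, pandas 2.3.3 and matplotlib 3.10.9 were used.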

Additional observations from a re-analysis of the deposited data

How the results depend on the processing

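No paired analysis was possible because each antibody had 1 library. The count of genes with an HA peak near the p53 peak, 1 as reported, was 0 when peaks had to lie within 1 kb, 3 within 50 kb, and 3 when 10 kb around the gene also counted. It was 1 with summit distances and 1 with HA peaks of −log10 q of at least 5. The number of genes given their summit was 8 as reported and 4 with the nearest end of any annotated gene, since noncoding genes and a pseudogene then took the rest. Related genes with a p53 summit numbered 1 within 10 kb and 2 within 50 kb, the addition being Hsp90aa1. The 9 peaks above 18-fold became 6 above 25-fold, and 7 of the 9 were among as many top peaks by −log10 q. Genes that held a summit, and related genes with an HA peak, stayed within 1.5 times the reported count under the alternatives run. The count of peaks with a p53 site, 1, could not vary, since sequence was read at 1 of the 9 peaks. Depth limits the order of the folds: with 71 to 265 reads at the summits, only Ier5 was set apart from the next of the 9 peaks.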
